A study of Mus musculus with 8 samples.

Results

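The 8 genes described here are expressed at high levels in the projection neurons of the striatum and carry or shape the dopamine signal there: the receptors Drd1, Drd2 and Adora2a, the adenylyl cyclase Adcy5, the phosphodiesterase Pde10a, the phosphatase inhibitor Ppp1r1b, the G protein regulator Rgs9 and the small GTPase Rasd2. They were chosen by symbol, and all 8 were found among the 24420 gene symbols common to the count tables. Poly(A) RNA was sequenced from prefrontal cortical slices of male mice, aged 5 to 6 weeks per the sample labels, in 8 libraries. Wild-type littermates gave 3 libraries, and the labels name no treatment for them. Heterozygous Shank3+/ΔC mice, in which exon 21 of the synaptic scaffold gene Shank3 is deleted from 1 copy, gave 3 libraries after saline (the saline group) and 2 after romidepsin (the romidepsin group). Romidepsin, a histone deacetylase inhibitor, was injected intraperitoneally on 3 days, 1 dose of 0.25 mg/kg each day, and the tissue was collected on the day after dosing ended. Both Shank3-deficient groups keep 1 intact copy of the gene, and effects of genotype and of saline injection cannot be told apart. Whether the libraries stem from separate animals is not in the labels, so the p-values reflect the spread from library to library and nothing more, and that spread may be technical.

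Striatal projection neurons fall into 2 classes. One class expresses Drd1, whose receptor stimulates cyclic AMP formation, and the other expresses Drd2 and Adora2a, whose receptors act on cyclic AMP in opposite directions. Adcy5 makes cyclic AMP, Pde10a degrades it, and protein kinase A, which it activates, phosphorylates the Ppp1r1b protein into an inhibitor of protein phosphatase 1. Rgs9 speeds the switching off of G proteins, and Rasd2 encodes Rhes, a small GTPase of dopamine and AKT signalling. Several of these genes are also expressed in neurons of the cerebral cortex, among them Drd1 and Ppp1r1b in deep layers.

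The libraries held between 7783537 and 15156318 counts on genes. Of the 24420 genes, 14809 passed the filter on low counts, and all 8 genes were among them. Shank3 itself stood at 252.0 to 348 CPM, with overlapping groups, where CPM (counts scaled by library size) takes its library totals from the TMM method of edgeR. The count takes in reads from exons that the deletion leaves in place, so it is no check of the genotype. The labels give the cell type as neurons, but in all 8 libraries 6 oligodendrocyte markers summed to 2810 to 5210 CPM and 5 astrocyte markers to 1169 to 1695 CPM. The 12 markers of cortical projection neurons summed to 1935 to 2547 CPM, and all 12 were read in every library. Slc17a7 alone made up 1358 to 1793 CPM of this sum. Foxp2, another of the 12, is also on the list of striatum-rich genes used below. In bulk samples of this kind, fewer cells of a type and less RNA per cell cannot be told apart.

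The 8 genes stood at very different levels, compared here as CPM per kb of merged exons over the 8 libraries. Adcy5 was highest, at 25.2 ± 1.33 (SD, n = 8), followed by Ppp1r1b at 21.7 ± 4.10 and Rasd2 at 19.1 ± 2.33. The ranges of these 3 neighbours met, although Adcy5 was above Ppp1r1b in 7 of 8 libraries and Ppp1r1b above Rasd2 in 7 of 8. A gap without overlap separated Rasd2 from Pde10a, at 5.67 ± 0.625, Rgs9, at 4.63 ± 0.787, and Drd1, at 4.54 ± 0.714. For Pde10a the gap rests on merged exon length, 12.8 kb against 3.18 kb for Rasd2. Before division by length the 2 genes overlapped, at 54.0 to 79.5 and 51.7 to 70.1 CPM. Merged exons span all annotated isoforms and can exceed the length of the RNA expressed. Within this middle set Rgs9 was above Drd1 in only 5 of 8 libraries. A second gap separated Drd1 from Adora2a, at 0.898 ± 0.209, and Drd2, at 0.496 ± 0.237, whose ranges met. Per kb, Drd1 was 4.95 to 22.9 times the level of Drd2 in a library, with Drd2 resting on 5 to 24 reads. The receptors of the Drd2 class were thus the lowest 2 of the 8 genes. On the scale per kb, the downstream enzymes and regulators stood well above all 3 receptors or, for Pde10a and Rgs9, beside Drd1.

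**Figure D1:**
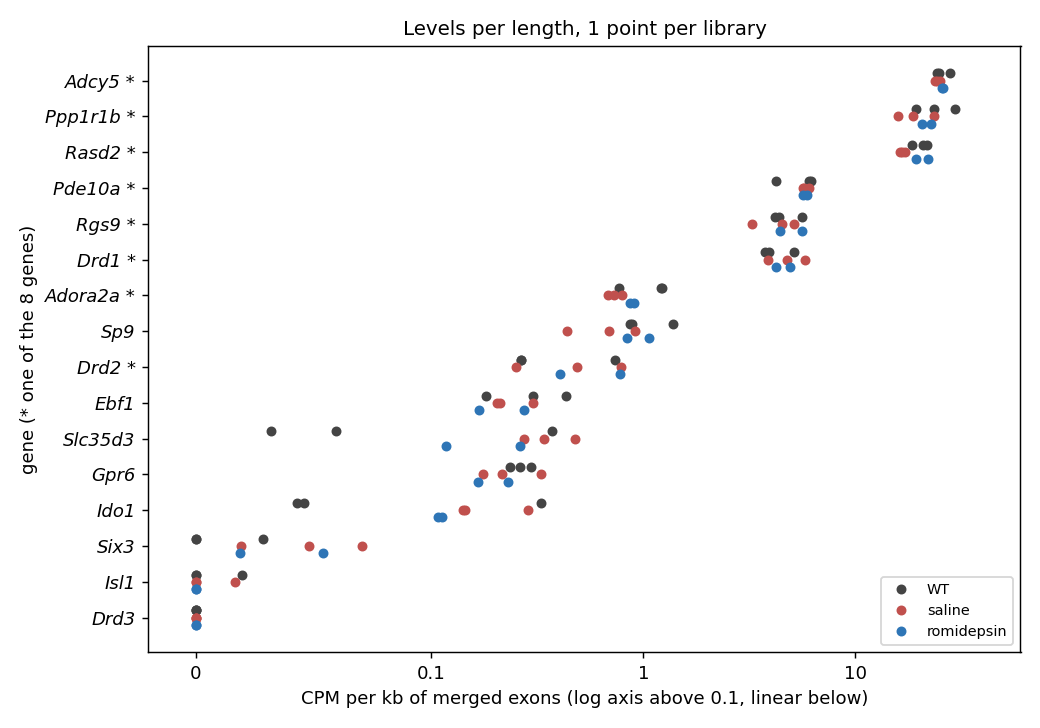
Levels in CPM per kb of merged exons (x axis, log scale above 0.1 and linear below) of the 8 genes (asterisks) and 8 striatal markers (y axis, ordered by mean), with 1 point per library coloured by group. Adcy5, Ppp1r1b and Rasd2 lie at 15.9 and above in every library, and Drd3 is at 0 throughout. Adora2a lies near the marker Sp9, and the mean of Drd2 lies between those of Sp9 and Ebf1.

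Of 8 markers of striatal projection neurons, chosen for little expression in cortical projection neurons, 6 had at most 56 reads over all 8 libraries together. Their expression in other cortical cells was not tested, and no striatal library was present for comparison. The dopamine receptor gene Drd3 had 0 reads in all 8 libraries, where a count of 0 allows up to 0.197 to 0.385 CPM depending on depth (3 counts per library, for counting error only). Isl1, a transcription factor gene of the Drd1 class, had 2 reads in all, and Six3, a transcription factor gene of the Drd2 class, had 14, with 2 libraries at 0. Gpr6, a receptor gene of the Drd2 class, had 40 reads, the enzyme gene Ido1 had 25, and the transporter gene Slc35d3 had 56. The transcription factor genes Ebf1 and Sp9 reached more, at 1.65 to 4.23 and 2.20 to 6.98 CPM. Summed, these 8 markers came to 6.74 to 12.2 CPM for wild type, 6.39 to 8.59 for saline and 8.03 to 8.37 for romidepsin, so the groups overlapped. Ebf1 and Sp9 made up most of the sum in every library. The wider list of 28 striatum-rich genes outside the 8, which holds these markers as well as genes that cortical neurons express, summed to 1528 to 1591, 1460 to 1595 and 1534 to 1560 CPM in the same order. In the same libraries the reads per library were 5 to 24 for Drd2, 19 to 49 for Adora2a and 134 to 262 for Drd1. Rasd2 had 409 to 919 and Adcy5 had 1351 to 2753. Per kb, Adora2a lay near Sp9, at means of 0.898 and 0.884. The Drd2 mean, 0.496, lay between those of Sp9 and Ebf1 (0.259), and its range met those of Ebf1, Slc35d3, Gpr6 and Ido1.

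The promoters of the genes at the top and bottom of this order, and of Rasd2, which had the smallest p of the 8 genes in both comparisons that use the saline group, are shown to display how they differ in base composition. The 250 bases before the RefSeq start are given 5′ to 3′ on the GRCm38.p6 build, with capitals marking GGGCGG on either strand, the GC box:
Adcy5, chr16:35154614-35154863, plus strand: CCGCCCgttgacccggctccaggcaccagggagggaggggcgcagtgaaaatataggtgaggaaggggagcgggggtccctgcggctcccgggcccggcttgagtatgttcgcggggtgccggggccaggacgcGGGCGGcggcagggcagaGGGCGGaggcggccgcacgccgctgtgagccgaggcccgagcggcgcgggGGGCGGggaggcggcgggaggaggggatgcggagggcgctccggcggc
Rasd2, chr8:75213694-75213943, plus strand: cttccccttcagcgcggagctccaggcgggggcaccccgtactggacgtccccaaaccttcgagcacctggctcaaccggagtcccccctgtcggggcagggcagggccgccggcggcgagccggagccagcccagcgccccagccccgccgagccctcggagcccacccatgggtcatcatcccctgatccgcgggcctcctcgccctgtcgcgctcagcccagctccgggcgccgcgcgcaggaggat
Drd2, chr9:49340153-49340402, plus strand: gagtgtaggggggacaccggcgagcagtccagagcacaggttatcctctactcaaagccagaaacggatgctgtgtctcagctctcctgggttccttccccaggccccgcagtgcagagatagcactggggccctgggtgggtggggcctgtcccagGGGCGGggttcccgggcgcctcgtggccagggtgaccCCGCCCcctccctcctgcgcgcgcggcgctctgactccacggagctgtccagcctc
RefSeq's promoter table held 6 of the 8 genes, with 8 start sites between them. Over the 250 bases, G and C made up 78.0% of the Adcy5 promoter, 75.2% of the Rasd2 promoter and 68.8% of the Drd2 promoter, against a median of 52.4% over 32851 promoters. The ratio of observed to expected CpG steps was 0.926, 0.784 and 0.507, against a median of 0.374. A GC box was found 4 times in the Adcy5 sequence and 2 times in that of Drd2, and these letters were not in the Rasd2 window. At least 1 GC box was in 5 of the 8 start sites' windows and in 32.7% of all windows of this length. A match is a description of the letters, not of binding.

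Drd1 (chromosome 13, 54051183 to 54055705, GRCm38), the stimulatory dopamine receptor gene, was read 134 to 262 times per library. It stood at 18.6, 14.2 and 13.6 CPM for wild type, 17.2, 14.0 and 20.9 for saline, and 15.4 and 17.9 for romidepsin. The groups overlapped, and saline replicate 3 was the only library above the wild-type range. Drd2 (chromosome 9, 49340627 to 49408177), the inhibitory dopamine receptor gene, stood at 0.674, 0.678 and 1.88 CPM for wild type, 1.24, 1.99 and 0.641 for saline, and 1.97 and 1.03 for romidepsin. Each group held 1 library near the top of the range, and the spread within groups exceeded that between them. Its coefficient of variation over the 8 libraries was 47.7%, where counting error alone gives 26.5% at its mean of 14.3 reads. Adora2a (chromosome 10, 75316877 to 75334784), the adenosine receptor gene of the Drd2 class, stood at 2.36, 3.69 and 3.76 CPM for wild type, 2.23, 2.1 and 2.44 for saline, and 2.66 and 2.78 for romidepsin. Wild-type replicates 2 and 3 were the highest, and wild-type replicate 1 lay among the saline libraries. It rested on 19 to 49 reads per library, and 95% Poisson intervals of its wild-type and saline libraries met.

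Adcy5 (chromosome 16, 35154877 to 35305738), the cyclase through which striatal receptors act on cyclic AMP, varied least of the 8 genes, with a coefficient of variation of 5.27%. It stood at 174, 177 and 200.4 CPM for wild type, 180.4, 171 and 173 for saline, and 184 and 186 for romidepsin. Wild-type replicate 3 was above all other libraries, and both romidepsin libraries were above all 3 saline libraries. Pde10a (chromosome 17, 8525372 to 8986648), the cyclic nucleotide phosphodiesterase of striatal neurons, stood at 77.4, 79.5 and 54.0 CPM for wild type, 77.4, 73.8 and 72.5 for saline, and 75.9 and 72.3 for romidepsin. Only wild-type replicate 3 stood apart, below a band of 72.3 to 79.5 that held the other 7 libraries. In that library the cortical projection neuron markers also had their lowest sum, 1935 CPM against 2157 to 2547 elsewhere, and the astrocyte markers their highest, 1695 CPM. The part of this shift in the Pde10a value was not tested.

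Ppp1r1b (chromosome 11, 98348404 to 98357796), the phosphatase inhibitor gene, stood at 86.3, 68.8 and 56.2 CPM for wild type, 46.6, 54.7 and 68.5 for saline, and 60.6 and 66.2 for romidepsin. Its range within wild type covered all other libraries but saline replicates 1 and 2. An antisense transcript, 1700003D09Rik, shares 15.7% of its exonic bases, and since the strand setting of the counting is not given in the sources used here, reads there cannot be told apart. Rgs9 (chromosome 11, 109225355 to 109298129), the G protein regulator gene, stood at 28.0, 26.7 and 35.7 CPM for wild type, 32.8, 20.7 and 28.9 for saline, and 28.3 and 35.7 for romidepsin. Saline replicate 2 was the lowest library and the others overlapped across groups. Rasd2 (chromosome 8, 75213944 to 75224113), the Rhes gene, stood at 66.5, 69.2 and 58.9 CPM for wild type, 54.6, 51.7 and 52.5 for saline, and 61.0 and 70.1 for romidepsin. All 3 saline libraries were below all 5 others, and wild type and romidepsin overlapped. Genes outside the 8 were placed the same way, and the share of all genes so placed was not computed. Tac1 had 11.9 to 15.7 CPM for saline and 16.7 to 19.2 in the other libraries. Pde4a had 121 to 143 CPM for saline and 152 to 168 in the others.

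**Figure D2:**
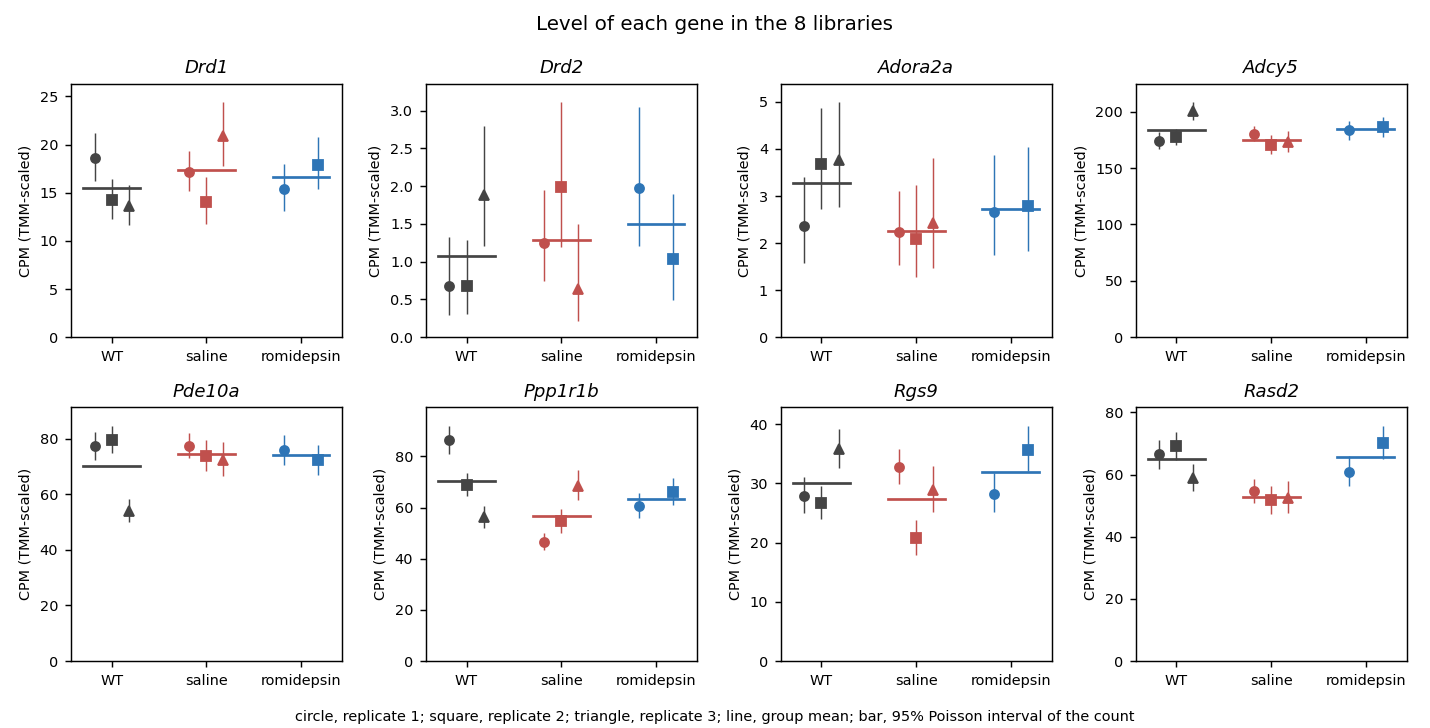
CPM (y axis, from 0) of each of the 8 genes in the wild-type (WT), saline and romidepsin libraries (x axis). Symbols are replicates, horizontal lines group means and vertical bars 95% Poisson intervals of the count. Among these 8 genes, Rasd2 is the one whose saline libraries, at 51.7 to 54.6 CPM, lie below those of both other groups. Pde10a in wild-type replicate 3 lies below the other 7 libraries.

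The saline group was compared with wild type, from which it differs in genotype and in the saline given. Rasd2 had 64.8 ± 5.36 CPM (SD, n = 3) for wild type and 52.9 ± 1.55 (n = 3) for saline, a 0.817-fold level (95% interval 0.717 to 0.931, log2 fold change -0.29, SE 0.088). It did not pass the edgeR quasi-likelihood test over all genes (adjusted p = 0.378, unadjusted p = 0.00494, place 188 of 14809 by p), although it was lower in 3 of 3 saline libraries. Adora2a, at 3.27 ± 0.791 and 2.25 ± 0.172 CPM, had a log2 fold change of -0.55 (SE 0.27, edgeR adjusted p = 0.611), and Ppp1r1b, at 70.5 ± 15.1 and 56.6 ± 11.1, one of -0.33 (SE 0.16, edgeR adjusted p = 0.615). The other 5 genes had log2 fold changes from -0.12 (Rgs9) to 0.28 (Drd2). Of the 8 genes 0 passed, where 0.00675% of all genes did, 1 of 14809. DESeq2 and limma-voom also called 0 of the 8. At an unadjusted p under 0.05 there was 1 of 8, Rasd2, against 8.39% of all genes. By direction that was 1 of 8 lower, against 4.8%, and 0 of 8 higher, against 3.59%. The groups did not overlap for 1 of 8, again Rasd2, against 12.6% of all genes, which were 6.36% lower and 6.26% higher. The median log2 fold change of the 8 genes was -0.10, with 3 above 0, beside 0.0047 and 51.3% above 0 for all genes tested. It was -0.044 without wild-type replicate 3 and -0.15 without wild-type replicate 2.

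Precision differed widely between the 8 genes. For Adcy5 the 95% interval of the saline level ran from 0.852-fold to 1.06-fold of wild type and for Pde10a from 0.888-fold to 1.27-fold. For Drd1 it ran from 0.881-fold to 1.42-fold, and for Drd2, with its few reads, from 0.573-fold to 2.57-fold. The Drd2 data thus exclude neither a lower nor a higher level within those bounds. The Pde10a log2 fold change of 0.086 became -0.077 without wild-type replicate 3, that of Drd2 changed from 0.28 to -0.096 without saline replicate 2 and to 0.94 without wild-type replicate 3, and that of Rgs9 from -0.12 to 0.015 without wild-type replicate 3 and to 0.041 when saline replicate 2 was left out. With a library left out, the log2 fold change of Ppp1r1b ran from -0.49 (without saline replicate 3) to -0.16 (without wild-type replicate 1), that of Drd1 from 0.019 (without saline replicate 3) to 0.31 (without wild-type replicate 1), and that of Adcy5 from -0.11 (without wild-type replicate 1) to -0.011 (without wild-type replicate 3). None of these passed in any of the settings tried.

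Romidepsin against saline addressed what the drug changed in the mutants. Rasd2 again had the smallest p of the 8 genes, at 65.5 ± 6.43 CPM (n = 2) in the romidepsin group against 52.9 ± 1.55 (n = 3), a 1.24-fold level (95% interval 1.07 to 1.43, log2 fold change 0.31, SE 0.099, higher in 2 of 2 libraries). It did not pass over all genes (edgeR adjusted p = 1.00, unadjusted p = 0.00759, place 45 of 14809 by p). Without romidepsin replicate 2 the log2 fold change was 0.20 and its unadjusted edgeR p was 0.131, over a range of unadjusted p from 0.0030 to 0.131 in 17 alternatives. The 3 saline libraries enter both this comparison and that with wild type, so the opposite directions of Rasd2 in them are not separate observations. Of the other genes, Drd2, Adora2a, Ppp1r1b, Rgs9 and Adcy5 had log2 fold changes of 0.080 to 0.27, Drd1 one of -0.055 and Pde10a one of -0.0093, all with an edgeR adjusted p = 1.00. The romidepsin libraries lay above all saline libraries for 3 of 8 genes, Rasd2, Adora2a and Adcy5, where 10.8% of all genes were placed so, and below them for 0 of 8, where 10.2% were. For Adora2a this rested on 27 reads in each romidepsin library, and for Adcy5 the fold was 1.06 (95% interval 0.935 to 1.20). The log2 fold change of Ppp1r1b, 0.18, was 0.044 without saline replicate 1, and that of Rgs9, 0.21, was 0.033 without romidepsin replicate 2.

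In that comparison 0 of the 8 genes passed and 0% of all genes did, by edgeR. DESeq2 and limma-voom also called 0 of the 8. At an unadjusted p under 0.05 edgeR gave 1 of 8 genes, Rasd2, against 3.26% of all genes, of which 1.73% were higher and 1.53% lower. The groups did not overlap for 20.9% of all genes in either direction. The median log2 fold change of the 8 genes was 0.19, with 6 above 0, beside -0.0029 and 49% above 0 for all genes tested. It was 0.089 without romidepsin replicate 2, 0.11 when saline replicate 2 was left out and 0.12 when saline replicate 1 was.

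Romidepsin-treated mutants were also compared with wild type. Rasd2 stood at 65.5 ± 6.43 against 64.8 ± 5.36 CPM (1.01-fold, 95% interval 0.874 to 1.17), and Adcy5 at 185 ± 2.0 against 184 ± 14.4 (log2 fold change 0.0080, SE 0.083). The direction of Rasd2 turned in 3 of 17 settings, furthest without romidepsin replicate 2 (-0.089), and that of Adcy5 in 4 of 17, furthest without wild-type replicate 1 (-0.031). The largest difference was that of Drd2, with a log2 fold change of 0.47 (SE 0.56), which was -0.068 without romidepsin replicate 1 and 1.13 without wild-type replicate 3. Of the 8 genes 0 passed in edgeR, DESeq2 or limma-voom, where edgeR called 0.00675% of all genes, and 0 of 8 had an unadjusted p under 0.05, where 3.24% of all genes did, 1.46% higher and 1.78% lower. The groups overlapped for all 8 genes, where 18.4% of all genes had groups without overlap, 9.34% higher and 9.08% lower. Of the 8 genes 6 had a log2 fold change above 0, where 50% of all genes did, and their median was 0.046. Without romidepsin replicate 2 there were 2 of 8 above 0 and the median was -0.049, and without wild-type replicate 3 there were 4 of 8 and it was -0.023. These intervals do not show that the levels are equal.

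**Figure D3:**
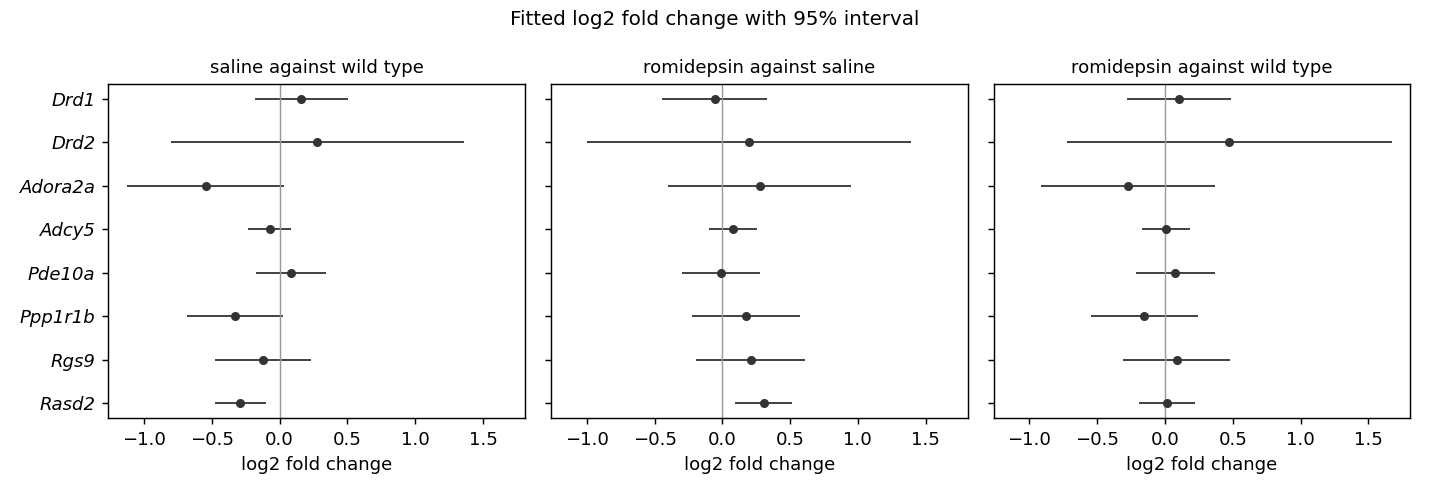
Fitted log2 fold change (x axis) of each of the 8 genes (y axis) in the 3 comparisons (panels), with 95% intervals from the edgeR fit. The interval of Rasd2 excludes 0 in the comparisons that use the saline group, before adjustment over all genes, and the intervals of Drd2 are the widest.

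The 8 genes did not move as a block across libraries. Saline replicate 2 was the lowest library for 4 of the 8 genes (Adora2a, Rgs9, Rasd2 and Adcy5) and the highest for Drd2. Wild-type replicate 3 was the highest for 3 (Adora2a, Rgs9 and Adcy5) and the lowest for 2 (Drd1 and Pde10a). On the log2 scale, Drd1 was 0.35 above its own mean in saline replicate 3, where Drd2 was 0.70 below its own. Ppp1r1b was 0.46 above its mean in wild-type replicate 1 and 0.42 below it in saline replicate 1, while Adcy5 lay at most 0.15 from its mean. Summed over the 8 genes, levels were 424 to 454 CPM for wild type, 390 to 420 for saline and 429 to 452 for romidepsin, a sum of which Adcy5 makes up the largest share. No library was high or low for all 8 genes at once.

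**Figure D4:**
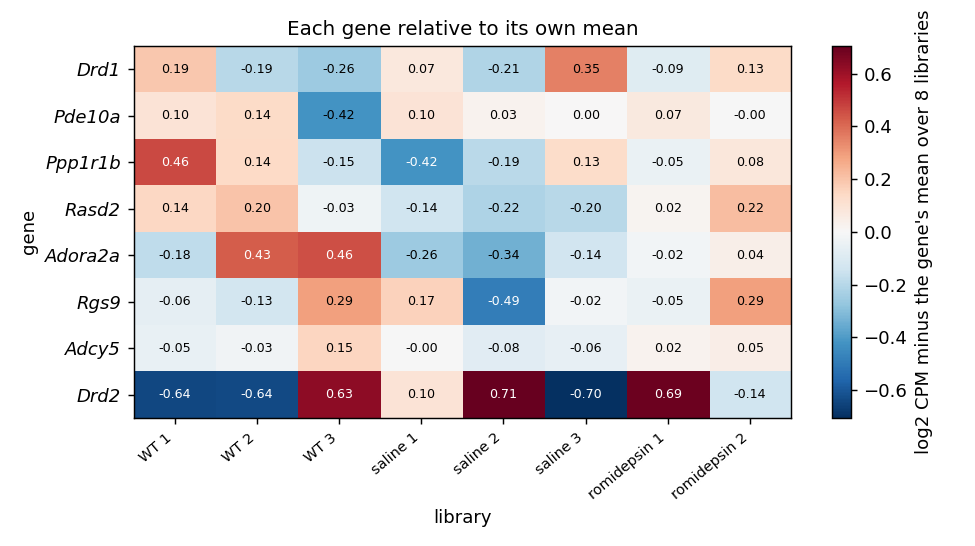
Log2 CPM of each of the 8 genes (y axis) in each library (x axis) minus the gene's mean over the 8 libraries, printed in each cell and coloured from blue (low) to red (high). Columns hold both colours: saline replicate 3 is 0.35 up for Drd1 and 0.70 down for Drd2, and wild-type replicate 3 is 0.42 down for Pde10a and 0.46 up for Adora2a.

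Other genes of the pathway gave no gene past the test in any comparison, in any of the lists described here. Among other dopamine receptors, Drd5 had 4.02 ± 1.18 CPM for wild type and 4.55 ± 1.79 for saline, Drd4 had 2 to 4 reads per library, and Drd3 had 0. Among the 3 other adenosine receptors, Adora1, the main inhibitory one of cortex, stood at 275 ± 26.7 and 284 ± 31.5 CPM, and Adora2b at 4.56 ± 0.743 and 5.39 ± 0.561. Adora3, an inhibitory receptor gene, was read 3, 4 and 12 times for wild type, 3, 1 and 4 times for saline, and 14 and 6 times for romidepsin. It was the 1 gene of the 3 with a higher level under romidepsin than saline, and its unadjusted edgeR p was 0.0238 (adjusted p = 1.00). Of the 8 other adenylyl cyclases 6 were lower and 2 higher with saline than for wild type (median log2 fold change -0.12), including Adcy6, the closest relative of Adcy5, at 73.9 ± 10.5 and 63.0 ± 6.08 CPM, and Adcy9 at 120.5 ± 12.6 and 106 ± 1.60 (edgeR adjusted p = 0.564 and 0.596). Of 17 cyclic nucleotide phosphodiesterases 11 were lower and 6 higher (median -0.25). At an unadjusted edgeR p under 0.05, 2 of the 17 were higher and 3 lower, where 3.59% and 4.8% of all genes were. Of the 8 cyclases, 0 were higher and 1 lower at that threshold. Pde4a stood at 158 ± 8.73 and 131 ± 11.3 CPM, Pde7a at 41.7 ± 4.35 and 32.5 ± 3.31, and Pde4b at 100.2 ± 3.84 and 115 ± 4.57 (edgeR adjusted p = 0.361, 0.372 and 0.457). With romidepsin against saline 11 of the 17 were higher (median 0.028), with Pde4a, which degrades cyclic AMP, at 153 ± 1.15 CPM in the romidepsin group, and Pde4d at 88.2 ± 3.35 and 78.0 ± 4.89 CPM for saline and romidepsin.

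Steps between the receptors and the phosphatase showed small differences in both directions. Of 10 G protein subunits 6 were higher in the saline group (median 0.020), with the inhibitory subunit Gnai1 at 196 ± 15.4 and 230.0 ± 24.8 CPM for wild type and saline, Gnb1, a beta subunit, at 683 ± 24.5 and 738 ± 18.3, and Gnal, the stimulatory subunit of striatal neurons, at 240 ± 12.5 and 224 ± 6.57. Of 6 protein kinase A subunits 5 were higher (median 0.081), with the regulatory subunit Prkar2b at 69.6 ± 5.75 and 80.04 ± 9.47 CPM and the catalytic subunit Prkacb at 659.7 ± 60.3 and 715 ± 40.1. Of 8 phosphatase 1 and calcineurin genes 3 were higher (median -0.014), with the catalytic subunits Ppp1cc at 174 ± 13.2 and 163 ± 7.97 CPM and Ppp1cb at 310.3 ± 6.77 and 331 ± 35.6. Of 10 tested RGS genes and partners of Rgs9 3 were higher (median -0.043), among them Rgs2, at 51.4 ± 1.81 and 56.7 ± 2.36 CPM, and Rgs10, at 17.6 ± 0.861 and 19.8 ± 2.24. Of 7 relatives of Rasd2 and AKT genes 2 were higher (median -0.019). Rasd1, the closest relative of Rasd2, had 6.50 ± 1.55 CPM for wild type and 4.68 ± 0.728 for saline (edgeR adjusted p = 0.630), with the groups apart. Genes of dopamine synthesis, transport and breakdown were higher in 5 of 6 tested (median 0.034). Maoa, which breaks dopamine down, stood at 37.4 ± 1.65 and 41.9 ± 2.29 CPM, and Th, the rate-limiting enzyme of dopamine synthesis, at 2.63 ± 1.59 and 4.42 ± 1.84. By library Th was at 1.77, 1.66 and 4.47 CPM for wild type and 2.29, 5.45 and 5.51 for saline, so the groups overlapped. The libraries highest for Th were saline replicates 2 and 3 and wild-type replicate 3. The same libraries had the highest sums of the olfactory and septal markers described below, at 78.1, 74.1 and 62.1 CPM. Whether the Th values and these sums are linked was not tested. For saline against wild type, 1 of the 10 G protein subunits had an unadjusted edgeR p under 0.05, and it was higher. The other lists of this paragraph held 0 such genes. With romidepsin against saline, the medians of these 6 lists lay between -0.087 and 0.045, and 0 of their genes passed.

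Of the striatum-rich genes outside the 8, 23 were tested, with 13 higher and 10 lower in the saline group (median log2 fold change 0.014, beside 0.0047 for all genes). At an unadjusted edgeR p under 0.05, 2 of the 23 were higher and 3 lower, where 3.59% and 4.8% of all genes were. Scn4b, a sodium channel subunit gene, stood at 83.9, 92.3 and 46.3 CPM for wild type, 26.3, 33.4 and 47.6 for saline, and 46.2 and 61.4 for romidepsin (log2 fold change of saline from wild type -1.08, SE 0.31, edgeR adjusted p = 0.425). Chrm4, a muscarinic receptor gene, had 38.5 ± 3.38 CPM for wild type and 47.3 ± 2.26 for saline, and Tac1, the neuropeptide gene of the Drd1 class, had 17.9 ± 1.27 and 13.6 ± 1.94 (edgeR adjusted p = 0.382 and 0.425). Penk, the opioid peptide gene of the Drd2 class, had 29.1 ± 3.98 CPM for wild type, 33.1 ± 4.56 for saline and 41.5 ± 1.21 for romidepsin (edgeR adjusted p = 1.00 for romidepsin against saline). With romidepsin against saline 11 of the 23 were higher (median -0.0025), among them Penk and Tac1, the latter at 17.7 ± 0.900 CPM for romidepsin.

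Marker sums of other cell types were also set beside the Rasd2 values, by group. The 5 endothelial and mural markers summed to 166 to 197 CPM for wild type, 107 to 151 for saline and 147 to 172 for romidepsin, and the fitted level of all 5 genes was lower with saline than for wild type (median log2 fold change -0.43, 4 at an unadjusted edgeR p under 0.05) and higher with romidepsin than with saline (median 0.27, 3 under 0.05). Flt1 stood at 61.8 ± 6.73 and 39.3 ± 8.03 CPM for wild type and saline, and Pecam1 at 22.9 ± 3.15 and 14.8 ± 3.06. The 6 olfactory and septal markers summed to 29.7 to 62.1, 48.4 to 78.1 and 32.3 to 34.4 CPM in the same order. The fitted level of all 6 was higher with saline than for wild type (median 0.83, 3 under 0.05). It was lower for all 6 with romidepsin than with saline (median -1.24, 5 under 0.05). Trh stood at 1.21 ± 0.446 and 3.74 ± 1.59 CPM and Calb2 at 14.0 ± 5.27 and 22.7 ± 5.35 for wild type and saline. The libraries of these groups overlapped, since the sum in saline replicate 1, 48.4 CPM, was below that in wild-type replicate 3, 62.1 CPM. Expression of these 6 markers in cortical cells, Calb2 among them, was not tested. The 5 meningeal markers summed to 41.0 to 65.8, 46.0 to 92.5 and 52.7 to 69.8 CPM. The fitted level of all 5 was higher with saline than for wild type (median 0.59, 3 under 0.05) and lower with romidepsin than with saline (median -0.39, 0 under 0.05). Slc47a1 stood at 0.983 ± 0.279 and 3.48 ± 1.86 CPM and Islr at 10.8 ± 2.28 and 16.2 ± 1.34 for wild type and saline. None of the genes of these lists passed the edgeR test over all genes. At an unadjusted edgeR p under 0.05, 4.8% of all genes were lower and 3.59% higher with saline than for wild type. With romidepsin against saline, 1.53% were lower and 1.73% higher. The 9 interneuron markers summed to 938 to 990.5, 928 to 1050 and 1089 to 1090 CPM, with 7 of 9 higher under romidepsin than saline (median 0.13, 3 under 0.05), among them Lhx6 at 21.0 ± 2.64 and 28.2 ± 0.229 CPM and Npy at 65.7 ± 8.61 and 82.7 ± 2.40 for saline and romidepsin. Against wild type, 8 of the 9 were higher under romidepsin (median 0.16, 4 under 0.05), where 1.46% of all genes were higher at that threshold. No marker of these 4 lists was at 0 in any library. In the order wild type, saline, romidepsin, the 6 oligodendrocyte markers summed to 2893 to 4696, 2810 to 5210 and 3123 to 3580 CPM. The fitted level of all 6 was lower in all 3 comparisons, with 0 under 0.05. The 5 astrocyte markers summed to 1169 to 1695, 1311 to 1609 and 1350 to 1458 CPM. The 5 microglia markers came to 270 to 385, 293 to 351 and 344 to 375 CPM. The 12 cortical projection neuron markers came to 1935 to 2547, 2157 to 2315 and 2323 to 2360 CPM. The part of these differences in the values of Rasd2 was not tested.

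The genes most like the mean profile of the 8 were named by the highest Pearson correlation over the 8 libraries, among 12636 other genes whose log2 CPM averaged 1 or more. They were the transcription factor gene Stat3 (r = 0.97), the chromatin remodeler gene Chd4 (0.95), the coat protein gene Sec24b (0.94), Utp11l (0.94) and the motor protein gene Dync1h1 (0.93). These values are a description, since so many genes over 8 libraries yield high correlations by selection alone, and the mean profile itself spanned only -0.12 to 0.061 on the log2 scale. Stat3 stood at 55.5, 57.8 and 60.5 CPM for wild type, 54.4, 52.1 and 51.4 for saline, and 60.3 and 60.5 for romidepsin.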

How the data were processed

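The authors deposited a table of unnormalized read counts by gene symbol for every library. Per the submitters' processing notes, the authors used bcl2fastq 2.17.1.14, TopHat2 2.1.1 and HTSeq 0.6.1 with mm10/GRCm38. The sources used here name neither the annotation nor the strand setting. The summary entries of the counting (absent for saline replicate 1) were left out. Genes took 32.4% to 35.3% of the counted alignments in the other 7 libraries. The libraries of a group were checked pairwise for duplication and differed beyond sampling noise.

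Counts were compared with edgeR 4.0.16 in R 4.3.3: filterByExpr (14809 genes kept), TMM, and a robust quasi-likelihood fit with a term per group over all 8 libraries. Adjusted p-values are Benjamini-Hochberg over all genes, with a threshold of 0.05. Standard errors are the absolute log2 fold change over the root of the F statistic. Log2 levels used a prior count of 2. Exon lengths and positions are from GENCODE M21. On simulated data the fit recovered 60.6% of 1.5-fold and 84.4% of 2-fold changes for saline against wild type, with 4% of calls false. For romidepsin against saline it recovered 51.0% and 78.1%, with 7.91% of calls false. The simulation was run once, with 104 genes changed 1.5-fold and 96 changed 2-fold, in the saline group only. These were drawn from genes above a floor of total reads, and each gene varied independently of the others. Shifts shared by the genes of a library were not simulated. The figures hold for that setting and may not carry over to the tests above. Alternatives were DESeq2 1.42.0, limma-voom (limma 3.58.1), other scalings and filters, 2-group fits, a replicate block and leaving out each library. The genes and lists were chosen with earlier results of these data known. The text names the 8 genes, 1 to 4 genes of smallest p from each list compared between groups (in the comparison described), the 8 striatal markers and the 5 genes most like the mean profile, with Shank3 as the targeted gene. The oligodendrocyte, astrocyte, microglia and cortical projection neuron lists were given as sums, with no gene named by p. Slc17a7 and Foxp2 were named to describe the last of these lists. Drd4, which was not tested, was named after its values were seen. Of the genes that this rule names, 1 is not reported here.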

Additional observations from a re-analysis of the deposited data

How the results depend on the processing

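None of the 8 genes passed in any of the 17 alternatives of any comparison in which it was tested, with a smallest adjusted p of 0.102 (edgeR, Rasd2, saline against wild type, without wild-type replicate 3). Rasd2 kept its direction in all 17 alternatives of saline against wild type (log2 fold change -0.36 to -0.24) and of romidepsin against saline (0.20 to 0.40). Of 405 values of single genes, 24 changed sign, and most did so when 1 library was left out. In saline against wild type, log2 fold changes with a library left out ran from -0.096 to 0.94 for Drd2, from -0.29 to 0.041 for Rgs9 and from -0.077 to 0.18 for Pde10a, and without a change of sign from -0.49 to -0.16 for Ppp1r1b. In romidepsin against saline they ran from -0.18 to 0.079 for Drd1, from -0.35 to 0.58 for Drd2 and from -0.044 to 0.025 for Pde10a. In romidepsin against wild type they ran from -0.0094 to 0.25 for Drd1, -0.068 to 1.13 for Drd2, -0.30 to 0.018 for Ppp1r1b, -0.091 to 0.25 for Rgs9, -0.089 to 0.11 for Rasd2, -0.090 to 0.17 for Pde10a and -0.031 to 0.066 for Adcy5. The median of the 8 genes also turned there, from 0.046 to -0.049 without romidepsin replicate 2 and -0.023 without wild-type replicate 3. In that comparison the sign also turned with the replicate block for Rasd2 (-0.024) and Pde10a (-0.0087), and with library totals only for Adcy5 (-0.0073).

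Counts over all genes moved more. Saline against wild type gave 1 gene, but 31 with DESeq2, 12 without the filter, 2 with only the 2 groups fitted, 4 with the replicate block and 1 to 54 with a library left out (54 without wild-type replicate 3). Romidepsin against saline gave 0, but 2 with DESeq2 and 0 to 3 with a library left out. Romidepsin against wild type gave 1, but 4 with DESeq2, 0 with library totals only, 2 without the filter, 0 with at least 10 reads in every library, 0 with the replicate block and 0 to 3 with a library left out. The cause was not tested. Same-numbered wild-type and saline libraries deviated from their group means with correlations of -0.18, 0.019 and -0.037. Deviations centred within groups of 3 cannot decide whether the numbers pair the samples. Drd2 was not tested under the filter of at least 10 reads in every library. Where 1 romidepsin library remained, it was assumed to vary like the other groups. Depth limits Drd2 and Adora2a most, with at most 24 and 49 reads per library.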
